A study of Mus musculus with 12 samples.

Results

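The transcriptome of PGAM2-K176R mutant C2C12 cells was compared between d0 and d4. The members are the 6 mutant libraries of the 12 in the series, chosen by their labels alone: 3 at d0, in growth medium, and 3 at d4, after 4 days in differentiation medium with horse serum. The other 6 libraries are WT cells at the same days and are used only where the response of the mutant cells is set against theirs. C2C12 is a mouse myoblast line. All mutant libraries carry the K176R change in both copies of Pgam2, the gene of the muscle isoform of phosphoglycerate mutase. The study obtained 1 homozygous clone, so the genotype and this clone cannot be told apart. Library depth was 17695434 to 19802274 reads at d0 and 16098407 to 20748164 reads at d4. The replicates are called biological, with no word on how the cultures were grown, so the p-values reflect library-to-library spread, which may be technical. Values per gene are counts scaled to 1e6 reads of a library (CPM) after TMM scaling, a correction for library composition, and follow the order of replicates 1, 2 and 3.

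Myoblasts in serum divide and hold the myogenic factors MyoD and Myf5. On serum withdrawal they leave the cell cycle, switch on myogenin, fuse through Myomaker and Myomixer and build sarcomeres, first with embryonic and neonatal and later with adult myosins. Glycolysis, in which phosphoglycerate mutase acts near its end, supplies energy to both states. In bulk RNA, fewer cells of a type and less RNA per cell cannot be told apart. Among myoblast markers at d0, Des, the muscle intermediate filament, was at 1304, 1707 and 1546 CPM and Myf5 at 42.8, 27.5 and 38.6 CPM. Pax7, another of them, was near 0, with 0.112, 0 and 0 CPM. Des is also in the list of fibroblast and smooth muscle markers used below. Read counts do not show which base a gene carries, so counts do not check the genotype label.

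Some libraries stood apart from their group. At d0, Rn7sk, a small noncoding RNA, was at 1.17, 7.86 and 223 CPM and Gm26917 at 263, 422 and 3581 CPM, both highest in replicate 3. Mitochondrial rRNA mt-Rnr2 was lowest in that library, with 386, 393 and 48.1 CPM. At d0, replicate 2 was highest in the transcript CT010467.1, with 1334, 3408 and 563 CPM, but below the d4 libraries, with 7751, 8156 and 8699.7 CPM. Transcripts of other organs were also seen. Of 21 hepatocyte genes, a list chosen after the data were seen, 5 were in the d0 table and 21 in the d4 table, and their summed level was 0.310 to 0.781 CPM at d0 and 38.7 to 84.5 CPM at d4. Acinar and islet genes summed to 18.3 to 21.1 CPM at d0 and to 26.9, 71.6 and 29.4 CPM at d4, highest in replicate 2. At d0 most of that sum was Cela1 (14.01, 10.65 and 12.78 CPM) and Irx2 (6.42, 7.24 and 6.56 CPM), which were also read in WT cells at d0. Digestive enzyme genes such as Pnlip (0.306, 4.92 and 0 CPM at d4) were highest in d4 replicate 2. The low sums of both lists moved with the day, and the part of these transcripts in the results was not tested. With d0 replicate 3 and d4 replicate 2 left out, which was chosen after seeing the data, 2402 genes were called higher and 2347 lower.

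Of 13755 genes tested, 2382 (17.3%) were higher and 2356 (17.1%) were lower at d4. Calls required both a Benjamini-Hochberg adjusted p below 0.05 (edgeR, quasi-likelihood test) and a log2 fold change beyond 1 in either direction. By adjusted p alone, 5066 (36.8%) were higher and 5281 (38.4%) lower. The 3 libraries of a day did not overlap those of the other for 10643 genes (77.4%). The day was the first principal component, with 94.4% of the variance. Called genes changed by a median of 1.69 log2 units upward and 1.67 downward, and 901 and 884 of them passed 2 log2 units. The median over all tested genes was -0.01, which is the level against which the gene lists below are read.

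**Figure D1:**
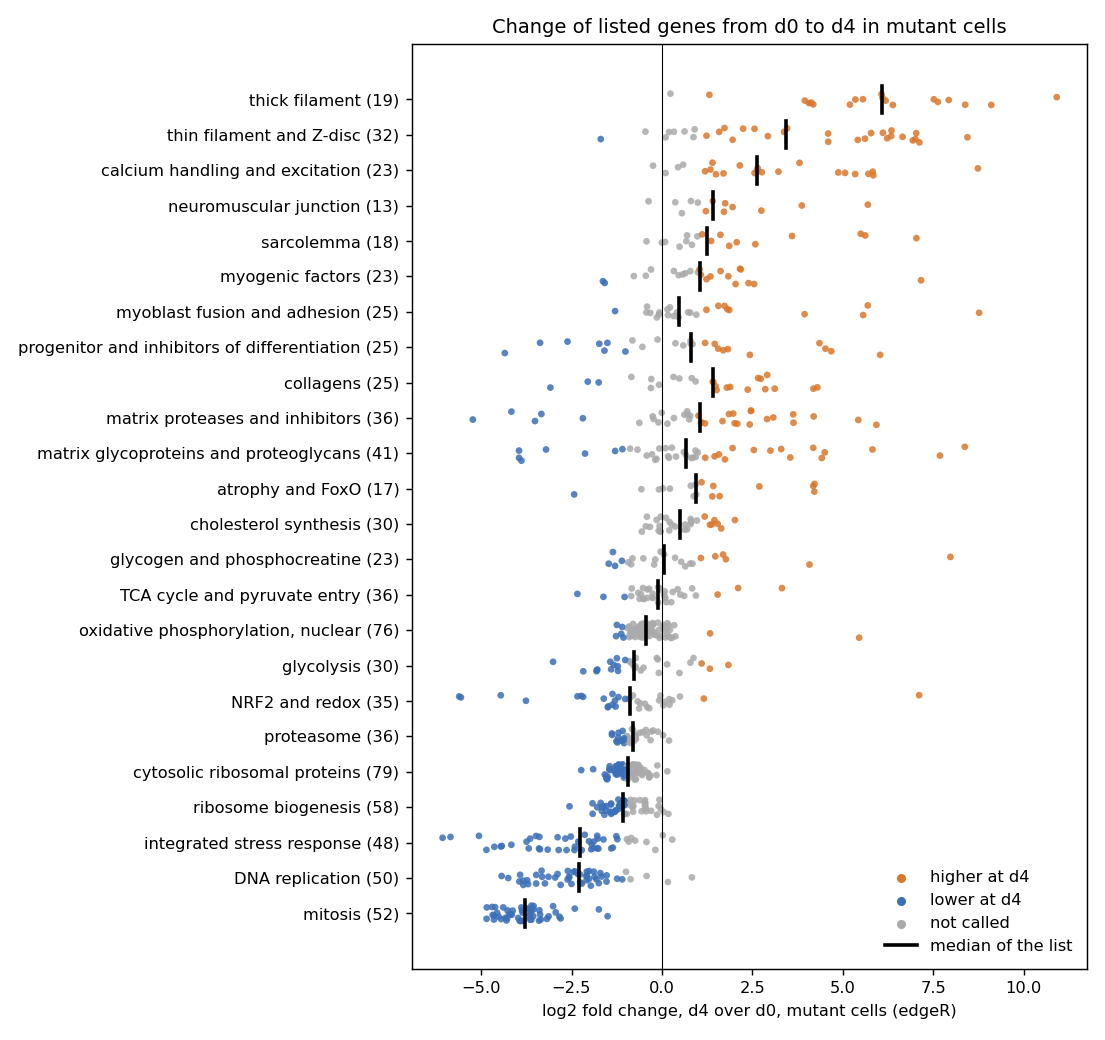
Log2 fold change of each tested gene, d4 over d0, in 24 gene lists (number tested in parentheses), from edgeR on 3 mutant libraries per day. Each point is a gene, coloured by its call, and the black bar is the median of the list; the medians run from 6.07 for the thick filament to -3.80 for mitosis.

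Pgam2 (ENSMUSG00000020475, mm10 chr11:5801640-5803733, minus strand), the mutated gene, was at 3.96, 5.58 and 3.28 CPM at d0 and 9.18, 8.94 and 9.46 CPM at d4. The days did not overlap, and the mean rose 2.15-fold (log2 fold change 1.10 ± 0.18 SE, adjusted p = 4.86e-05). The call rested on the fold change cutoff: without d0 replicate 3 the log2 fold change was 0.93, with adjusted p = 0.000361. Pgam1 (ENSMUSG00000011752, mm10 chr19:41911871-41918664, plus strand), which encodes the isoform found in most tissues, was at 459, 584 and 534 CPM at d0 and 149, 148 and 152 CPM at d4 and fell 3.51-fold (log2 fold change -1.81 ± 0.08 SE, adjusted p = 6.80e-12). Processed pseudogene copies of Pgam1 are in the tables too, so its reads could be split between them. In FPKM, which is also scaled by gene length, Pgam1 stood above Pgam2 at both days, with 78.0 to 80.9 FPKM against 10.3 to 10.9 FPKM at d4. Because Pgam2 is the mutated gene, the 150 bases before its RefSeq start are shown (GRCm38.p6 chr11:5803797-5803946, minus strand), with the hexamer CAGCTG in capitals. This hexamer is a form of the E-box to which MyoD and myogenin bind.
Pgam2: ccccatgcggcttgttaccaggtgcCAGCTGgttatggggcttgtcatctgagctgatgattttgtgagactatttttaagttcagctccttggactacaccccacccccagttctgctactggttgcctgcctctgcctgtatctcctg

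Glycolysis was called lower in 12 of 30 tested genes and higher in 3 (median -0.77 on the log2 scale). Slc2a1, the basal glucose transporter GLUT1, was at 324, 371 and 374 CPM at d0 and 43.6, 45.7 and 43.5 CPM at d4 and fell 8.06-fold. The enzymes around phosphoglycerate mutase fell less: Pgk1, which makes the substrate of phosphoglycerate mutase, fell from 1858 to 538 CPM, and Eno1, whose enzyme uses its product, from 2411 to 896 CPM. Eno3, the muscle enolase, was at 600.3, 770.1 and 694 CPM at d0 and 203, 199 and 192 CPM at d4 and fell too, 3.48-fold (log2 fold change -1.80 ± 0.09 SE). Pkm, pyruvate kinase, passed the cutoff narrowly (log2 fold change -1.02, and -0.94 without d0 replicate 2). Gapdh (-0.72), Hk1 (-0.73) and one entry of Aldoa (-0.51) stayed inside the cutoff. Another entry with the symbol Aldoa was at -1.22. The 3 genes that rose were Pgam2, Eno2 (from 21.2 to 53.01 CPM) and, named after its values were seen, Slc2a4, the insulin-responsive transporter GLUT4, which stayed below 1 CPM in every library.

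Among myogenic factors, 12 of 23 tested were higher and 2 lower, with a median of 1.04. Myog (myogenin), the factor that starts terminal differentiation, was at 0.614, 0.672 and 1.19 CPM at d0 and 115, 116 and 123 CPM at d4. Its lowest d4 library lay far above its highest d0 library, and the mean rose 143-fold (log2 fold change 7.16 ± 0.15 SE, adjusted p = 4.47e-16). Myod1, singled out after its values were seen, rose from 59.2 to 182 CPM, and Mef2a, a partner of the myogenic factors, from 72.7 to 329 CPM. Myf5, a factor of proliferating myoblasts, was at 42.8, 27.5 and 38.6 CPM at d0 and 71.5, 77.2 and 80.1 CPM at d4 and rose 2.10-fold (log2 fold change 1.07 ± 0.12 SE, 0.89 without d0 replicate 2). Vgll2, a cofactor of TEAD factors in muscle, fell from 50.2 to 16.8 CPM. Mef2d (0.99) and Tcf12 (0.57) were not called.

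Of 25 tested genes of fusion and adhesion, 9 were higher and 1 lower, with a median of 0.46. Mymk, which encodes Myomaker, was at 6.08, 6.46 and 6.90 CPM at d0 and 290.0, 304 and 324 CPM at d4, a 47.2-fold rise. Mymx, which encodes Myomixer, was at 0.0558, 0.155 and 0.0565 CPM at d0 and 39.9, 42.6 and 45.01 CPM at d4, or 5 reads in all at d0 against 2398 at d4. Both fusogens thus stood clear of their d0 range in every d4 library. Tmem182, a muscle membrane protein, rose from 0.978 to 50.98 CPM. The general adhesion genes Itgb1 (0.78), Itga3 (0.17) and Kirrel (0.22) were not called, and Ckb, brain creatine kinase, fell from 167 to 68.1 CPM.

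Sarcomere genes had the highest medians. Of 19 tested thick filament genes, 18 were higher and 0 lower, beside 17.3% of all genes, and their median was 6.07 (5.55 with genes that had no reads at d0 set to their lower bound). Members low at d0, such as Myl2, Myh1 and Myh3, passed the filter on low counts through d4 alone, so the filter fixed their direction. The same holds for Mymx, Lmod2, Cacna1s, Casq1, Cav3, Ckm, Mb and other tested genes near 0 reads at 1 day. Myh3, embryonic myosin heavy chain, was at 1.39, 0.465 and 0.509 CPM at d0 and 444, 431 and 424 CPM at d4 and rose 548-fold (log2 fold change 9.10 ± 0.17 SE, adjusted p = 1.25e-16). Mylpf, the fast regulatory light chain, was at 3.74, 3.93 and 4.52 CPM at d0 and 942, 999 and 1022 CPM at d4, and Mybph, a myosin-binding protein, at 0.893, 1.60 and 2.38 CPM at d0 and 315, 316 and 332 CPM at d4. Ttn, the giant elastic protein titin, rose from 106 to 1769 CPM. Myl2, the slow and cardiac regulatory light chain, had 0 reads at d0 and 10.8, 13.6 and 14.4 CPM at d4, at least 78.9-fold higher with 3 reads per library taken as the floor. Mylk2, skeletal myosin light chain kinase, was the member not called (20.5, 21.8 and 19.96 CPM at d0 and 25.9, 22.1 and 25.3 CPM at d4).

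Some adult and neonatal myosins were near the detection limit at d4. Myh4, the fast IIb heavy chain, had 0 reads at d0 and 0.459, 0.765 and 0.498 CPM at d4, at least 3.50-fold higher by the same floor. Myh8, the neonatal heavy chain, was at 0, 0 and 0.0565 CPM at d0 and 0.204, 0.574 and 0.311 CPM at d4, 1 read against 21. Both were too low for the filter on low counts and were not tested. Myh1, the IIx heavy chain, passed it and was higher, with 0, 0.0517 and 0.113 CPM at d0 and 4.94, 2.82 and 5.67 CPM at d4, though only 3 reads stood at d0 (95% interval 27.00 to 390.0 for the ratio of 81.5-fold, counting error only). In FPKM at d4, Myh3 was at 68.0 to 71.1, Myh1 at 0.429 to 0.866 and Myh4 at 0.0740 to 0.123, an order in which no neighbours overlapped.

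Of 32 tested genes of the thin filament and Z-disc, 24 were higher and 1 lower, with a median of 3.42. Acta1, skeletal alpha-actin, was at 6.14, 5.64 and 7.13 CPM at d0 and 721, 785 and 798 CPM at d4 and rose 122-fold (log2 fold change 6.93 ± 0.10 SE, adjusted p = 2.60e-17). Tnnt3, fast troponin T, rose from 2.29 to 294 CPM, and Neb (nebulin), which runs along the actin filament, from 1.07 to 139 CPM. Lmod2, which extends actin filaments, had 3 reads at d0 and 1207 at d4, a ratio of 392-fold (95% interval 133 to 1900.0). Tpm3, a tropomyosin of nonmuscle and slow muscle cells, was the member that fell, with 715, 801 and 785 CPM at d0 and 241, 239.99 and 231 CPM at d4. Flnc (0.87), Cryab (0.62) and Tpm1 (0.33), already expressed in myoblasts, were inside the cutoff. Actn2, the sarcomeric alpha-actinin, had 16 reads at d4 and 0 at d0 and was not tested.

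Calcium handling and excitation genes were higher in 19 of 23 and lower in 0, with a median of 2.63. Cacna1s, the voltage sensor of the calcium channel, was at 0.112, 0 and 0.226 CPM at d0 and 49.3, 50.3 and 47.9 CPM at d4. Trdn (triadin) was at 1.73, 1.19 and 1.13 CPM at d0 and 76.3, 70.8 and 83.1 CPM at d4 and Casq2, the slow and cardiac calsequestrin, at 2.62, 2.999 and 2.26 CPM at d0 and 108, 104 and 109 CPM at d4, and each rose clear of its d0 libraries. Casq1, the fast calsequestrin, was low at both days, with 0.112, 0.155 and 0.113 CPM at d0 and 0.765, 1.48 and 1.49 CPM at d4, yet was called (log2 fold change 3.22 ± 0.52 SE). Hrc, which binds calcium in the sarcoplasmic reticulum, rose from 0.822 to 43.02 CPM. Bin1 (0.59) and Asph (-0.25) were not called.

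At the neuromuscular junction, 8 of 13 were higher and 0 lower (median 1.40). Chrng, the fetal gamma subunit of the acetylcholine receptor, was at 6.58, 5.998 and 6.67 CPM at d0 and 334, 333 and 326 CPM at d4, a 51.6-fold rise. The receptor subunits Chrna1 (471, 530.2 and 539 CPM at d0 and 888, 908 and 886 CPM at d4) and Chrnd (159.6, 168 and 188 CPM at d0 and 216, 224 and 225 CPM at d4) did not overlap between days but were inside the cutoff, with log2 fold changes of 0.80 and 0.37. Lrp4, the agrin receptor, rose from 16.9 to 246 CPM, and Musk, its kinase partner, from 15.9 to 53.3 CPM. Of 18 sarcolemma genes, 10 were higher and 0 lower. Sgca, of the sarcoglycan complex, rose from 7.95 to 96.2 CPM, and Trim72, which reseals the membrane, rose from 0.234 to 31.8 CPM. Cav3, muscle caveolin, was at 0.0558, 0 and 0 CPM at d0 and 1.27, 0.956 and 1.12 CPM at d4, 1 read against 63 (ratio 60.1-fold, 95% interval 10.6 to 2450.0).

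**Figure D2:**
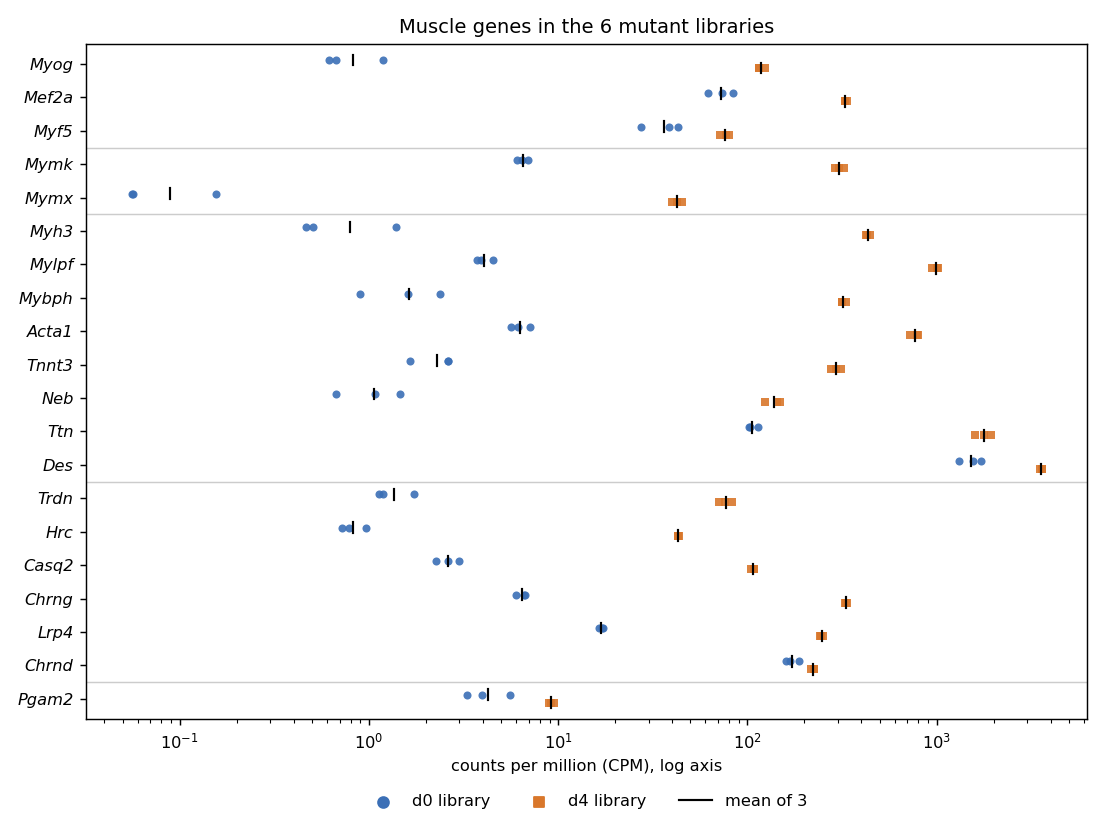
CPM on a log axis in each of the 3 d0 libraries (circles) and 3 d4 libraries (squares) of mutant cells for 20 muscle genes, with the mean of 3 as a bar. For every gene drawn the d4 squares lie to the right of the d0 circles; Myh3 moves from at most 1.39 to at least 424 CPM, and Pgam2 from at most 5.58 to at least 8.94 CPM.

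The hexamer CAGCTG was searched in the 250 bases before the RefSeq start of 9921 of the tested genes, on both strands. It was present in 17.2% of genes called higher, 10.5% of genes called lower, 11.1% of genes not called and 1187 of all 9921. Among genes of the thin filament and Z-disc it was in 11 of 24, among calcium handling genes in 5 of 13 and among thick filament genes in 5 of 16. A match describes the letters and is not evidence of binding. Sequences are shown for 2 called sarcomere or calcium genes whose last 150 bases hold it. They had the largest changes among such genes meeting the promoter rule given below. The hexamer is in capitals: Cacna1s (GRCm38.p6 chr1:136052661-136052810, plus strand) and Mybph (chr1:134193298-134193447, plus strand).
Cacna1s: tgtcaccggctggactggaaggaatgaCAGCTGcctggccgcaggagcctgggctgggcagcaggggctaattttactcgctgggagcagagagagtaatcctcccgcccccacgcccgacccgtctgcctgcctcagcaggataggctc
Mybph: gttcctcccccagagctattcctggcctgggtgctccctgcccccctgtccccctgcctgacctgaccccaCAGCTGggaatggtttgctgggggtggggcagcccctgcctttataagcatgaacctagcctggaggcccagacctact

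Genes of myogenic progenitors and inhibitors of differentiation moved in both directions, 10 of 25 higher and 7 lower (median 0.79). The shares of all genes were 17.3% and 17.1%. Hmga2, a chromatin protein of growing myoblasts, was at 451, 360.3 and 391 CPM at d0 and 19.9, 19.2 and 20.2 CPM at d4 and fell 20.3-fold (log2 fold change -4.34 ± 0.09 SE). Msc (musculin), a repressor of MyoD, fell from 25.8 to 2.47 CPM, and Id2, which sequesters the partners of MyoD, from 10.6 to 1.73 CPM. On the Notch side, the ligand gene Dll1 was at 0.279, 0.310 and 0.226 CPM at d0 and 18.9, 17.6 and 18.2 CPM at d4, the receptor gene Notch3 rose from 54.7 to 295 CPM and the target Heyl from 1.89 to 43.8 CPM. Cxcr4, a chemokine receptor of migrating progenitors, rose from 3.89 to 99.9 CPM. Pax7, the satellite cell factor, was near 0 at both days, with 0.112, 0 and 0 CPM at d0 and 0.612, 0.287 and 0.685 CPM at d4.

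Cell cycle genes fell together. All 52 tested genes of mitosis were called lower, beside 17.1% of all genes, with a median of -3.80. Cdc20, the activator of the anaphase-promoting complex, was at 164, 208 and 191 CPM at d0 and 5.30, 6.88 and 7.47 CPM at d4 and fell 28.6-fold (log2 fold change -4.85 ± 0.12 SE, adjusted p = 3.78e-15). Ccnb1, cyclin B1, was at 146, 146 and 148 CPM at d0 and 4.49, 6.50 and 5.91 CPM at d4, and Kif2c, a kinesin of the centromere, at 82.6, 95.03 and 89.6 CPM at d0 and 2.24, 3.97 and 3.05 CPM at d4. The d4 values stayed above 0 in every library. Of 50 genes of DNA replication, 45 were lower and 0 higher, with a median of -2.30. Mcm5, of the replicative helicase, fell from 178 to 11.7 CPM, Mcm10 from 53.2 to 2.41 CPM and Uhrf1, which keeps DNA methylation at forks, from 261 to 13.7 CPM. The members not called included the E2F factors E2f1 (-0.99) and E2f2 (0.83).

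Regulators of the G1 phase were called in both directions, 4 of 18 higher and 8 lower (median -0.66), beside 17.3% and 17.1% of all genes. Cdkn1a, the inhibitor p21, was at 289, 332 and 331 CPM at d0 and 678, 682 and 680.4 CPM at d4 and rose 2.14-fold (log2 fold change 1.10 ± 0.07 SE). Rb1, the retinoblastoma protein, rose from 30.1 to 130.1 CPM and its relative Rbl1, of cycling cells, fell from 64.9 to 12.7 CPM. Ccnd3, the cyclin D kept in myotubes, rose from 116 to 652 CPM, whereas Ccnd1 fell from 483 to 136 CPM. Cdkn1b, the inhibitor p27, was at a log2 fold change of 0.95 and not called.

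Replication-dependent histone genes, whose transcripts mostly lack a poly(A) tail, gave no stable direction. Of 22 tested, 9 were higher and 6 lower, with a median of 0.84. The median was -0.64, 0.33 and 1.70 without d0 replicate 1, 2 or 3 and -0.05, -0.48 and -0.05 without d4 replicate 1, 2 or 3, over 23 to 28 tested genes. Hist1h1c was at 21.6, 25.1 and 35.5 CPM at d0 and 131, 137 and 127 CPM at d4 and higher in every d4 library. Hist1h1e was at 0.502, 0.569 and 9.22 CPM at d0 and 0.714, 1.10 and 0.623 CPM at d4, and its call as lower rested on d0 replicate 3, the library high in Rn7sk: without it the log2 fold change was 0.60 (adjusted p = 0.32), and without d4 replicate 1 or 3 the adjusted p was 0.0814 or 0.0858. Hist1h2bk, at 0.781, 0.620 and 3.79 CPM at d0 and 0 reads at d4, was at least 10.7-fold lower by the floor of 3 reads per library, and its d0 level was highest in replicate 3 as well.

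The letters CCAAT, bound by NF-Y, were found in the 250 bases before the start of 31 of 43 mitosis genes (72.1%) and 25 of 41 replication genes (61.0%), against 37.0% of all 9921 genes. The cell cycle homology letters TTTGAA were in 14 of 43 mitosis genes (32.6%) against 10.3% of all. Sequences are shown for 2 mitosis genes that hold both in the last 150 bases. They had the largest falls among such genes meeting the promoter rule given below. Both motifs are in capitals on either strand: Cdc20 (GRCm38.p6 chr4:118437344-118437493, minus strand) and Espl1 (chr15:102296143-102296292, plus strand), the gene of separase, which fell from 144 to 6.64 CPM.
Cdc20: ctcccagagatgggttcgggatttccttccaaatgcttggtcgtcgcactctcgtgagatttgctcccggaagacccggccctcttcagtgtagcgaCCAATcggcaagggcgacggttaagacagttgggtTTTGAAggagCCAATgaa
Espl1: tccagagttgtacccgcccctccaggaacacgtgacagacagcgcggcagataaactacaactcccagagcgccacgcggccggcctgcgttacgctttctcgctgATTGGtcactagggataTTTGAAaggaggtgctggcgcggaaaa

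The integrated stress response, through which ATF4 raises amino acid synthesis and transport, was called lower in 40 of 48 genes and higher in 0, with a median of -2.26. Trib3, a pseudokinase induced by ATF4, was at 174, 203 and 234 CPM at d0 and 3.16, 3.01 and 2.93 CPM at d4 and fell 67.1-fold (log2 fold change -6.06 ± 0.13 SE, adjusted p = 7.34e-16). Chac1, which degrades glutathione, was at 93.02, 159 and 162 CPM at d0 and 2.96, 5.78 and 5.67 CPM at d4. Phgdh, the first enzyme of serine synthesis, was at 759.6, 918 and 899 CPM at d0 and 28.5, 37.05 and 38.3 CPM at d4, a 24.8-fold fall with no overlap. Cth, of cysteine synthesis, fell from 60.4 to 1.05 CPM and Aldh1l2, of mitochondrial folate metabolism, from 323 to 9.76 CPM. Atf3, a stress-induced factor, fell from 66.7 to 9.09 CPM and was highest in d0 replicate 3 (52.6, 57.4 and 90.2 CPM at d0). Hspa5 (BiP), a chaperone of the endoplasmic reticulum, and Xbp1, a factor of the unfolded protein response, were inside the cutoff, at -0.18 and 0.28.

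The amino acid response letters TGATGNAA, which CHOP and ATF4 composite sites carry, were in 10 of 39 genes of this list (25.6%) and in 1.95% of all. Sequences are shown for 2 called genes of the list that hold them in the last 150 bases. They had the largest falls among such genes meeting the promoter rule given below. The letters are in capitals on either strand: Slc7a11 (GRCm38.p6 chr3:50443614-50443763, minus strand), the cystine transporter, which fell from 28.7 to 1.27 CPM, and Asns (chr6:7693210-7693359, minus strand), asparagine synthetase, which fell from 437 to 20.3 CPM.
Slc7a11: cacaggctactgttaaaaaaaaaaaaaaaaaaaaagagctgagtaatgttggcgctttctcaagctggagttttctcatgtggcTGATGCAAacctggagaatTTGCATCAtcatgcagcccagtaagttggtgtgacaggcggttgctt
Asns: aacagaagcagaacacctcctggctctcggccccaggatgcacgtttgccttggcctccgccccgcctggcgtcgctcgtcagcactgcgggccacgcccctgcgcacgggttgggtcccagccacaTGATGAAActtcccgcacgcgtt

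**Figure D3:**
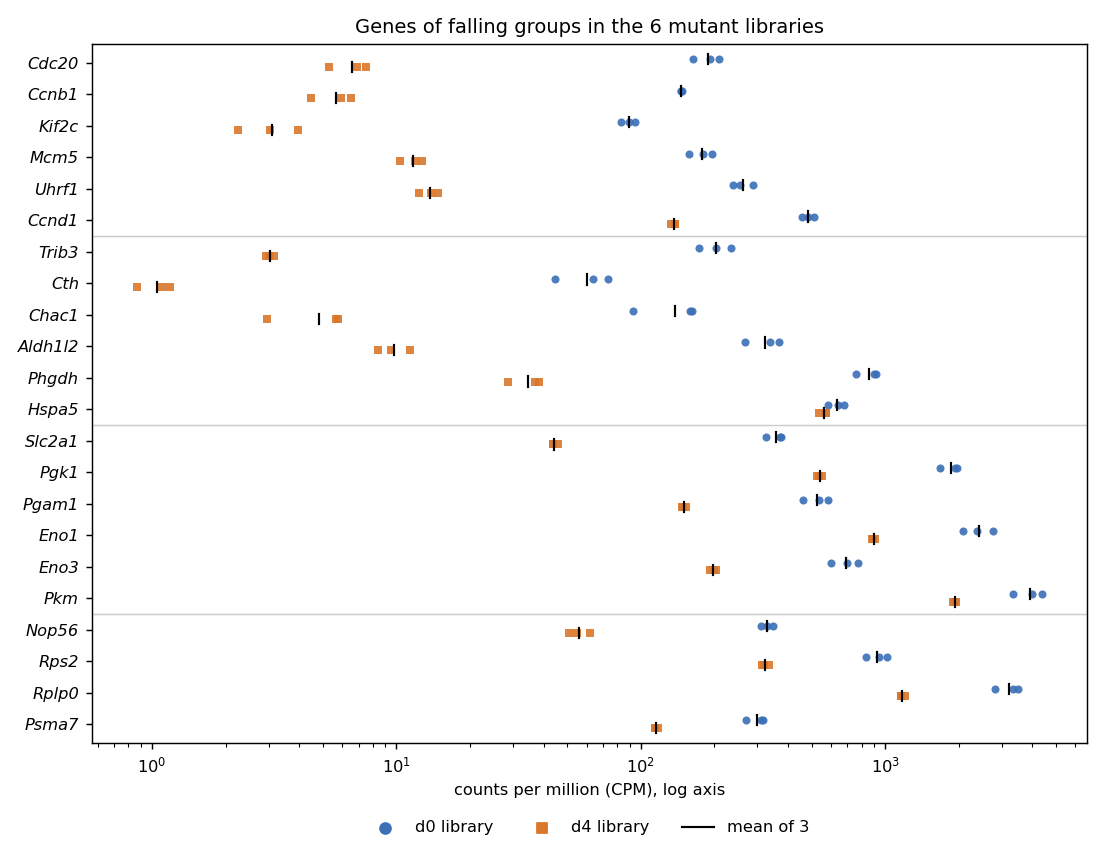
CPM on a log axis in each of the 3 d0 libraries (circles) and 3 d4 libraries (squares) of mutant cells, with the mean of 3 as a bar, for genes of the cell cycle, the integrated stress response, glycolysis and protein synthesis and turnover. Cdc20 moves from at least 164 to at most 7.47 CPM and Trib3 from at least 174 to at most 3.16 CPM, while Hspa5 changes little, with log2 fold change -0.18.

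Genes of protein production also fell. In ribosome biogenesis, 34 of 58 were lower and 0 higher (median -1.07), and Nop56, of the nucleolar methylation complex, was at 328, 348 and 311 CPM at d0 and 54.8, 62.1 and 50.7 CPM at d4. Of 79 cytosolic ribosomal protein genes, 34 were lower past the fold cutoff and 76 by adjusted p alone, a small shift of nearly the whole list (median -0.94). Rps2 fell from 929 to 321 CPM. Of 36 proteasome genes, 11 were lower and 0 higher (median -0.81), and Psma7, of the core ring, fell from 299 to 115 CPM. Of 35 genes of the NRF2 and redox list, 16 were lower and 2 higher (median -0.88). Nqo1, a quinone reductase, fell from 69.7 to 5.13 CPM.

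Few mitochondrial genes passed the fold cutoff. Of 76 nuclear genes of oxidative phosphorylation, 5 were lower and 2 higher (median -0.44), and by adjusted p alone 55 were lower. Atp5b, of the ATP synthase, was at 2563, 3089.5 and 2965 CPM at d0 and 1607, 1663 and 1662 CPM at d4 (log2 fold change -0.81). Cox8b, a subunit found in striated muscle, rose from 5 reads in all to 241. None of the 13 mitochondrially encoded genes passed the cutoff by edgeR, although 6 were higher and 3 lower by adjusted p alone, 12 had an unadjusted p under 0.05 and DESeq2 called 0. mt-Co1 was at 6586, 5855 and 6624 CPM at d0 and 9758, 10142 and 10179.9 CPM at d4. Of 36 TCA cycle genes 3 were higher and 3 lower, and of 23 genes of lipid use and myoglobin 4 and 3, shares below or near the 17.3% and 17.1% of all genes. Mb, myoglobin, was at 0, 0.155 and 0 CPM at d0 and 5.56, 3.59 and 3.92 CPM at d4, 3 reads against 247.

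Among glycogen and phosphocreatine genes, 6 of 23 were higher and 4 lower (median 0.06). Ckm, muscle creatine kinase, was at 0.0558, 0.103 and 0.0565 CPM at d0 and 16.2, 19.5 and 24.3 CPM at d4, 4 reads in all at d0, and Pygm, muscle glycogen phosphorylase, rose from 1.32 to 22.5 CPM. In cholesterol and fatty acid synthesis 7 of 30 were higher and 0 lower (median 0.50), among them Scd1, a desaturase, at 557, 553 and 583 CPM at d0 and 2267, 2311 and 2268 CPM at d4. Hmgcs1 and Idi1, of the sterol pathway, rose from 38.4 to 105 CPM and from 9.79 to 30.4 CPM. In the SUMO pathway, by which proteins are tagged for regulation, 1 of 23 was higher and 3 lower (median -0.14). Those lower were Uba2 (from 160.3 to 62.9 CPM) and Sae1 (from 223 to 107 CPM), which form the activating enzyme, and the protease gene Senp1 (from 82.1 to 33.1 CPM).

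Of 17 genes of atrophy and FoxO signalling, 8 were higher and 1 lower. Fbxo32 (atrogin-1), a muscle ubiquitin ligase, was at 11.9, 9.67 and 10.6 CPM at d0 and 189.7, 199 and 207 CPM at d4, a 18.5-fold rise, and Trim63 (MuRF1) rose from 0.576 to 10.7 CPM. Lysosome and autophagy genes were higher in 8 of 40, a share near the 17.3% of all genes, and lower in 0 (median 0.24). Map1lc3a, an autophagosome coat protein, rose from 61.00 to 577 CPM and the protease gene Ctsf from 2.89 to 31.6 CPM. In the IGF axis 4 of 16 were higher and 4 lower. Igfbp5, a binding protein linked to muscle differentiation, was at 1295, 1292 and 1445 CPM at d0 and 6958, 6879 and 7439 CPM at d4. Igfbp2 fell, with 744, 994 and 916 CPM at d0 and 47.00, 50.96 and 43.5 CPM at d4. Of 14 imprinted genes 6 were higher and 1 lower, and the noncoding RNA H19 was at 68.7, 82.3 and 80.6 CPM at d0 and 4204, 4288 and 4507 CPM at d4, a 56.1-fold rise with no overlap between days.

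Extracellular matrix genes were called in both directions, beside 17.3% higher and 17.1% lower among all genes. Of 25 collagen genes, 14 were higher and 3 lower (median 1.42). Col3a1, of fibrillar collagen III, was at 775, 806 and 847 CPM at d0 and 4239, 4151 and 4154 CPM at d4, and Col11a1 rose from 1.75 to 34.5 CPM, whereas Col7a1, of anchoring fibrils, fell from 24.6 to 2.82 CPM. Of 41 glycoprotein and proteoglycan genes, 15 were higher and 7 lower (median 0.66). Dcn (decorin) was at 5.91, 4.14 and 4.64 CPM at d0 and 985, 1003 and 1027 CPM at d4, a 205-fold rise (log2 fold change 7.68 ± 0.12 SE, adjusted p = 2.60e-17). Ogn (osteoglycin) was at 4.46, 3.05 and 3.22 CPM at d0 and 188, 190.1 and 227 CPM at d4. Tnc (tenascin C) fell, with 225, 278 and 230.5 CPM at d0 and 17.7, 16.3 and 15.6 CPM at d4, as did Fbln1, from 78.6 to 5.07 CPM, and Fn1 (fibronectin) was not called (0.17). Of 36 protease and inhibitor genes, 19 were higher and 5 lower (median 1.04). Timp2 rose from 909.6 to 3655 CPM, and Timp1 fell from 267 to 58.6 CPM.

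**Figure D4:**
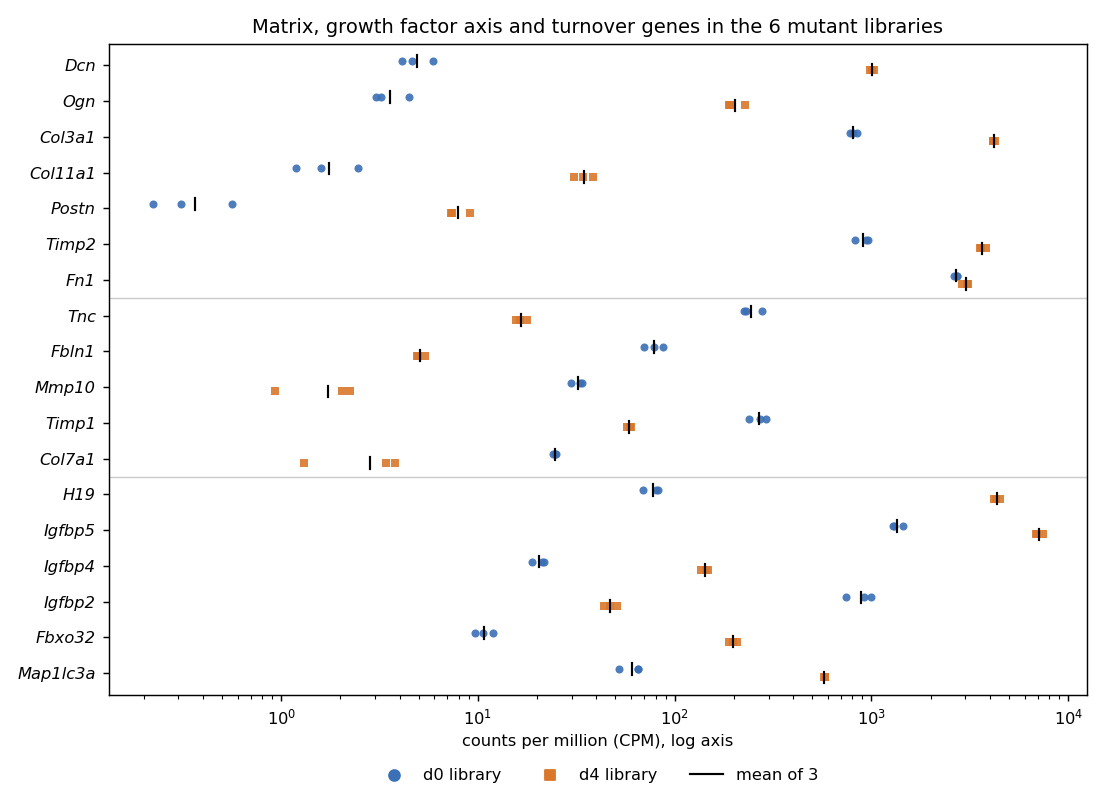
CPM on a log axis in each of the 3 d0 libraries (circles) and 3 d4 libraries (squares) of mutant cells, with the mean of 3 as a bar, for genes of the matrix, the IGF axis and protein turnover. Dcn moves from at most 5.91 to at least 985 CPM and Tnc from at least 225 to at most 17.7 CPM, while Fn1 has a log2 fold change of 0.17.

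Signalling lists were called in both directions, beside 17.3% higher and 17.1% lower among all genes. In the lists of this paragraph, shares called lower were near or below that, at 9.52% to 18.8%, except for immediate early genes (38.5%). Shares called higher were 28.1% to 38.5%, except for HOX (14.3%) and immediate early genes (15.4%). In BMP and TGF-beta signalling 15 of 39 were higher and 7 lower, in Wnt 9 of 32 and 6, among chemokines and cytokines 10 of 29 and 3, and among interferon and antigen presentation genes 11 of 34 and 4. Ranbp3l, an export factor for BMP-activated SMADs, was at 0, 0.0517 and 0.0565 CPM at d0 and 2.19, 2.68 and 3.67 CPM at d4, 2 reads against 158. Nog (noggin), a BMP antagonist, rose from 1.54 to 8.08 CPM, and the ligand gene Wnt7b fell from 77.6 to 3.89 CPM. Cxcl12, the ligand of CXCR4, was at 6.70, 6.72 and 6.96 CPM at d0 and 52.3, 54.9 and 52.4 CPM at d4. Psmb8, of the immunoproteasome, rose from 5 reads in all to 126, and Oas1a, an antiviral synthetase, fell from 71 to 4. Of 26 immediate early genes 4 were higher and 10 lower. Fosl1, an AP-1 subunit, was at 161, 194 and 162 CPM at d0 and 9.23, 10.9 and 7.78 CPM at d4, whereas Egr1 rose from 39.4 to 91.5 CPM. Of 24 p53 targets 8 were higher and 4 lower. Of 21 HOX genes 3 were higher and 2 lower, and Hoxb13 fell, with 4.07, 4.91 and 4.13 CPM at d0 and 1.58, 2.63 and 0.996 CPM at d4. Unc5c, a netrin receptor gene, had 1 read at d0 and 2 at d4.

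Markers of other cell types moved with the day in some lists, to be read beside 17.3% higher and 17.1% lower among all genes. The adipocyte list (16.7% higher and 0 lower) and the pluripotent and germline list (0 called) were near or below those shares. Of 18 tested fibroblast and smooth muscle markers 11 were higher and 2 lower. The list summed to 2093 to 2604 CPM at d0 and 7478 to 7698 CPM at d4, with 0 of 24 missing from both tables. Thy1 and Tcf21, however, were not listed at d0 and had 0 reads in every d4 library. Des and Dcn, described above, are in this list. Des, given above as a myoblast marker, was the largest part of both sums, with 1304, 1707 and 1546 CPM at d0 and 3497, 3597 and 3597 CPM at d4. Of 11 neuron and glia markers 6 were lower and 2 higher, with sums of 664 to 724 and 334 to 353 CPM. Nefl, a neurofilament, was at 155, 169 and 158 CPM at d0 and 1.94, 2.20 and 1.56 CPM at d4. Map2 went the other way, with 36.6, 26.83 and 30.03 CPM at d0 and 153.4, 140.5 and 156.1 CPM at d4. Rbfox3, Elavl4 and Sox10 were in neither table. Of 31 markers of blood, endothelium and epithelium 6 were tested, and all 6 were lower. The list summed to 223 to 263 CPM at d0 and 15.4 to 18.2 CPM at d4. Krt8 (26, 29 and 22 reads at d0 and 0, 6 and 3 at d4) passed the filter on low counts through d0 alone. So did Krt14 (49, 87 and 55 against 5, 10 and 29 reads), so the filter fixed the direction of both. Pecam1, Cdh5 and Spi1 were near 0 at both days and were not tested. Hba-a1, an alpha-globin, was at 31.7, 34.6 and 33.3 CPM at d0 and 0.612, 1.05 and 0.747 CPM at d4, and Krt19, a keratin, at 173, 208 and 198 CPM at d0 and 8.16, 9.32 and 7.59 CPM at d4, while Cd3e and Epcam were in neither table. Of 5 tested beta-cell markers 1 was higher and 3 lower, and the list summed to 22.3 to 37.2 and 43.3 to 44.9 CPM, with Mafa the largest part at d4. Ins2 was at 5.25, 4.14 and 11.99 CPM at d0 and 7.49, 6.84 and 6.10 CPM at d4 and not called. Of 6 tested adipocyte markers 1 was higher (Lpl) and 0 lower, with Adipoq and Plin1 in neither table, and of 7 bone and cartilage markers 2 were higher and 1 lower. None of 6 tested pluripotent and germline markers was called by edgeR, with or without the fold cutoff, 0 had an unadjusted p under 0.05 and DESeq2 called 0. Of 4 tested acinar and islet markers other than beta-cell ones 2 were higher (Ctrb1 and Ttr) and 0 lower. Both passed the filter on low counts through d4 alone, Ctrb1 with 2, 0 and 0 reads at d0 and 45, 220 and 17 at d4. Markers such as Lum, Dpt, Col10a1 and S100b did so as well, whereas Glp1r, Scg2 and Cnn1 passed it through d0 alone. For these markers too the filter fixed the direction. The part of other cells in the results was not tested.

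The largest changes came from the groups above and from genes outside them. Besides sarcomere genes, the largest rises included Sox8, a transcription factor gene, with 0, 0.0517 and 0.0565 CPM at d0 and 23.7, 23.95 and 26.7 CPM at d4, 2 reads against 1394, and Adora1, an adenosine receptor gene, with 0 reads at d0 and 6.52, 6.88 and 2.93 CPM at d4 (at least 33.2-fold higher). The largest falls included Ngfr, the low-affinity neurotrophin receptor, with 9.43, 12.7 and 9.44 CPM at d0 and 0.0510, 0 and 0 CPM at d4, 582 reads against 1. Prl2c3, a prolactin family gene with near-identical copies between which reads can be split, fell from 118 to 0.911 CPM. By difference in CPM, rises were led by genes such as Igfbp5, Col3a1, Timp2, Des and Ttn, and falls by Vim (6481, 7322 and 6979 CPM at d0 and 2557, 2654 and 2732 CPM at d4), Actb (from 3945 to 1836 CPM) and other genes of the cytoskeleton, glycolysis and ribosome. By annotation, 27 of 432 processed pseudogenes were higher and 270 lower (median -1.38), whereas 123 of 319 lincRNAs were higher and 45 lower. Processed pseudogenes are copies of transcripts, so the counting could split reads between them and their parent genes, and these calls are uncertain.

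To see where this response differs from that of WT cells, the change from d0 to d4 was compared between genotypes by the interaction of genotype and day in limma on log2(FPKM + 1), over all 12 libraries, called at an adjusted p below 0.05 and a difference beyond 1. Of 14314 genes tested, the response of mutant cells was called larger (a more positive change) in 576 (4.02%) and smaller (a more negative change, so also a deeper fall) in 829 (5.79%). With edgeR on reads, those of WT cells at d4 worked back from FPKM, 1312 of 15114 (8.68%) were larger and 1202 (7.95%) smaller. Fold changes of genes near 0 reads count in full there and less on the FPKM scale, so both are given where they differ. In WT cells alone, with the same reads, 1800 genes (12.6%) were higher and 1863 (13.0%) lower of 14336. Of the 2382 genes higher in mutant cells, 948 (39.8%, and 52.7% of the WT genes) were higher in WT as well, 35 were lower and 1256 were not called there. Of the 2356 lower, 1280 (54.3%, and 68.7% of the WT genes) were lower in WT, 47 were higher and 940 were not called.

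The interactions of sarcomere genes depended on the scale. On the FPKM scale, of 25 thick filament genes the interaction was smaller in 20 and larger in 1, and of 36 thin filament and Z-disc genes smaller in 26 and larger in 0. With edgeR on reads, 7 of 25 thick filament genes were smaller and 3 larger, and 14 of 37 thin filament and Z-disc genes smaller and 1 larger. Myh1 was at 134, 126 and 132 FPKM in WT and 0.755, 0.429 and 0.866 FPKM in mutant cells at d4, and Myh4 at 40.02, 37.01 and 40.9 against 0.0740, 0.123 and 0.0804 FPKM. Actn2 was at 41.9, 45.98 and 42.7 against 0.0782, 0.0851 and 0.0478 FPKM and Casq1 at 58.3, 64.97 and 60.9 against 0.380, 0.733 and 0.744 FPKM. The genotypes did not overlap for any of these at d4. On reads the interaction passed the test for Casq1 (-5.13, adjusted p = 0.000469), whereas Myh1 (-0.84, adjusted p = 0.63), Myh4 (-1.54, adjusted p = 0.73) and Actn2 (-2.05, adjusted p = 0.77) missed it. Mylpf went the other way on both scales, with an interaction of 1.51, and of 1.82 on reads (adjusted p = 1.7e-07). Myh3 was at -0.62 on the FPKM scale, inside the cutoff, and at 2.19 on reads (adjusted p = 2.17e-06), so its direction turned with the scale. For Myog, Mymk, Mymx, Acta1, Tnnt3 and Chrng the interaction was inside the cutoff on the FPKM scale, from -0.34 to 0.44. On reads, Myog (1.83, adjusted p = 2.85e-06) and Mymx (2.81, adjusted p = 2.38e-05) were larger, and Mymk (-0.06), Acta1 (0.59), Tnnt3 (0.53) and Chrng (0.36) stayed inside it. The direction for Mymx turned with the scale, and Myog turned to -1.10 with a pseudocount of 5. Their levels differed between genotypes. Myog was at 836, 878 and 820 FPKM in WT and 74.7, 74.7 and 80.2 FPKM in mutant cells at d4, and at 26.1, 21.1 and 19.1 against 0.409, 0.457 and 0.809 FPKM at d0.

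Pgam2 rose by 5.01 log2 units in WT and 0.94 in mutant cells, from 3.15, 2.71 and 3.15 FPKM to 122, 129 and 132 FPKM in WT and from 4.69, 6.76 and 3.97 to 10.6, 10.3 and 10.9 FPKM in mutant cells (interaction -4.06 ± 0.18 SE, adjusted p = 1.47e-08). It was somewhat higher in mutant than in WT cells at d0 and far lower at d4. Pgam1 fell in both genotypes, and its interaction of -0.55 ± 0.18 SE was inside the cutoff. Eno3 changed by 0.91 in WT and -1.84 in mutant cells, with an interaction of -2.75. In glycolysis as a whole, 9 of 29 interactions were smaller and 1 larger (9 and 1 of 30 on reads). Cav3 and Myh8 changed by 5.07 in WT and 0.93 in mutant cells and 4.54 in WT and 0.04 in mutant cells, and Mb, myoglobin, by 6.80 in WT and 1.87 in mutant cells. On reads these 3 missed the test (Cav3 -1.59, adjusted p = 0.61, Myh8 -4.70, adjusted p = 0.0893, and Mb -1.30, adjusted p = 0.54).

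In the integrated stress response 32 of 48 interactions were smaller and 0 larger (35 and 0 on reads). Here smaller means a deeper fall in mutant cells, with a list median of -1.92 against -0.45 in WT. Trib3 was at 70.2, 56.2 and 101 FPKM at d0 and 42.6, 44.2 and 36.2 FPKM at d4 in WT cells, and at 81.3, 97.1 and 112 and 1.44, 1.37 and 1.34 FPKM in mutant cells (interaction -4.51 ± 0.25 SE). The genotypes thus overlapped at d0 and were apart at d4. Chac1 changed by 0.26 in WT and -4.48 in mutant cells. Fgf21, a stress-induced hormone, was at 5.11, 4.14 and 4.76 FPKM at d0 and 231, 261 and 205 FPKM at d4 in WT and at 1.46, 1.49 and 3.51 and 0.156, 0.825 and 0.191 FPKM in mutant cells. Mitosis differed in 1 of 52 genes and DNA replication in 4 of 50, all smaller (10 and 6 on reads).

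Among lists with larger responses in mutant cells, 12 of 41 glycoprotein genes and 10 of 29 chemokine and cytokine genes were called larger, and 5 and 3 smaller. On reads this was 15 of 47 and 11 of 33 larger, and 5 and 3 smaller. Ogn was at 58.8, 88.4 and 85.02 FPKM at d0 and 71.99, 72.1 and 65.01 FPKM at d4 in WT cells, and at 1.73, 1.21 and 1.28 and 70.97, 71.5 and 86.1 FPKM in mutant cells. Its level thus differed at d0 and overlapped at d4. Islr, Spon2 and Nid2 likewise started far lower in mutant cells, Nid2 at 4.29, 3.80 and 3.85 FPKM against 53.2, 46.2 and 56.8 FPKM. Cp (ceruloplasmin) and Sema3c (a semaphorin) instead ended higher, Sema3c at 88.95, 89.4 and 91.5 FPKM against 16.1, 16.3 and 14.5 FPKM. Cxcl12 and Cxcl5 changed in opposite directions, by -1.79 in WT and 1.99 in mutant cells and -3.16 in WT and 0.94 in mutant cells. Myf5 changed by -0.67 in WT and 0.99 in mutant cells (interaction 1.66 ± 0.23 SE, adjusted p = 1.13e-04), and Ranbp3l by -1.19 in WT and 0.48 in mutant cells. Pax7, at 4.02, 3.83 and 4.29 FPKM in WT at d4 and 0.101, 0.0473 and 0.114 FPKM in mutant cells, and Unc5c did not overlap between the genotypes at either day, and their interactions of -0.17 and 0.47 were inside the cutoff. With edgeR on reads the Pax7 interaction was 3.17 (adjusted p = 0.00174).

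**Figure D5:**
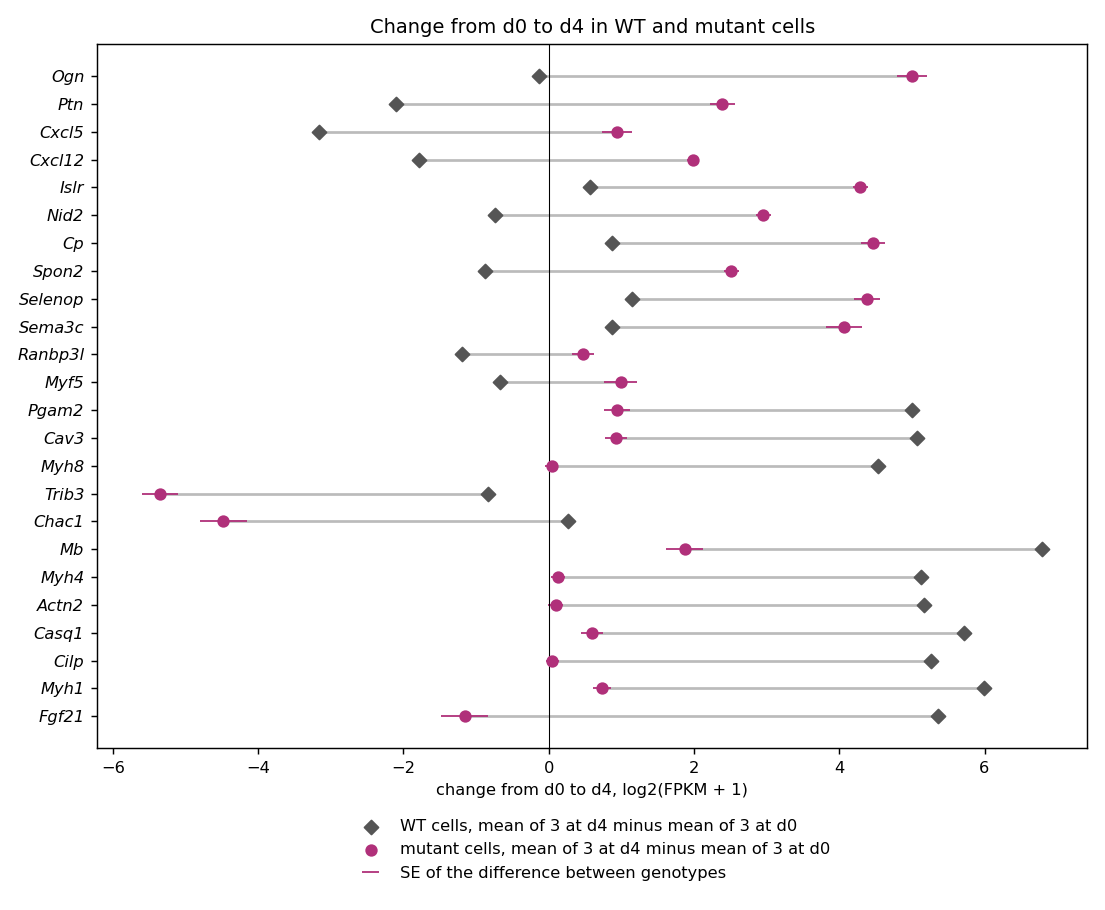
Change from d0 to d4 in log2(FPKM + 1) in WT (diamonds) and mutant cells (circles) for 24 genes named by rule whose responses were called different, each the mean of 3 libraries at d4 minus the mean of 3 at d0, with the SE of the difference between genotypes as the bar. The circles of Pgam2, Cav3, Mb and the myosin genes lie near 0 to 2 while their diamonds lie above 4, and Ogn, Ptn and Cxcl12 show the opposite order. With edgeR on reads, Cav3, Mb, Myh1, Myh4 and Myh8 missed the test.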

How the data were processed

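Poly(A) RNA of C2C12 cells was sequenced as paired-end reads by a company, which also analysed the data. The submitters' processing notes list the mm10 build and DESeq2 1.20.0. For the aligner, the counter and strandedness, nothing is given in the sources used here. Raw counts for each gene were deposited for the mutant libraries at each day, along with FPKM made by the authors, scaled by gene length and separately within each day. Groups came from the labels. Genes listed in the tables of both days (21774) entered the fits, after edgeR's filter on low counts. The days were compared with edgeR 4.0.16 (quasi-likelihood, TMM, day as the term, mutant libraries only) in R 4.3.3, with the 2 cutoffs given above. The study's methods name 2 biological replicates per condition, whereas the labels give 3. The interaction of genotype and day used limma 3.58.1 on log2(FPKM + 1), a scale that understates changes of low genes, for genes with at least 0.5 FPKM in 3 libraries. The separate scaling of the days cancels there for genes well above 1 FPKM, but not exactly for lower ones. In the WT table for d4, 3 count columns bear names of mutant libraries and were left aside. For WT cells at d4, reads were worked back from FPKM and were whole within 0.01 reads for 100% of genes. FPKM between genes and genotypes were compared within a day only.

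Members, gene lists and tests were chosen with earlier results of these data known. Genes named are those the study names, the 15 largest called changes each way among protein-coding genes (at least 5 CPM, groups apart), up to 5 called genes each way (at least 1 CPM) and 4 not called per list, the 10 largest CPM differences each way and the 10 largest interactions each way (at least 1 FPKM). Others are said to be named after their values were seen. The hepatocyte list and the fit without the 2 libraries that stand apart were added after seeing the data. Asns and Espl1 were taken by the promoter rule. Ratio intervals are exact (Clopper-Pearson, 95%) and, like floors, cover counting error only. Same-numbered libraries of the days did not deviate together (r = -0.02, 0.034 and -0.001), so they were not paired. Alternatives were DESeq2 1.42.0, other size factors, no filter, other cutoffs and pseudocounts, FPKM in place of counts and leaving out each library. Promoter sequences come from RefSeq on GRCm38.p6, with 9921 of 13755 tested genes matched by symbol, 7519 of them within 100 bases of the gene start in the files. The scripts were tested on simulated data.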

Additional observations from a re-analysis of the deposited data

Results flagged for a closer look

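Responses to the day that differed between genotypes by the interaction test are listed as mutant minus WT, in log2(FPKM + 1). In all, 576 genes had a larger (more positive) and 829 a smaller (more negative) response in mutant cells. Larger responses were found for Ogn (5.13), Ptn (4.49), Cxcl5 (4.10), Cxcl12 (3.78), Islr (3.72), Nid2 (3.70), Cp (3.60), Spon2 (3.40), Selenop (3.22), Sema3c (3.19), Ranbp3l (1.67), Myf5 (1.66) and Mylpf (1.51). Smaller responses were found for the muscle genes Pgam2 (-4.06), Cav3 (-4.14), Myh8 (-4.50), Mb (-4.92), Myh4 (-5.00), Actn2 (-5.06), Casq1 (-5.12) and Myh1 (-5.26), for the glycolytic gene Eno3 (-2.75), for the matrix gene Cilp (-5.21), and for the stress genes Trib3 (-4.51), Chac1 (-4.74) and Fgf21 (-6.51). With edgeR on reads, Cav3, Myh8, Mb, Myh4, Actn2, Myh1 and Cilp missed the test (adjusted p = 0.0893 to 0.97), and the others named here passed it.

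Genes listed at 1 day alone were left out of the comparison of days above and entered only the alternative over genes of either table. Alb, albumin, was listed only at d4, with a mean of 506 reads per mutant library, and Ins1, an insulin gene, only at d0, with a mean of 31.3 reads.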

How the results depend on the processing

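By adjusted p alone 5066 genes were higher and 5281 lower, and 37 lists had at least 50% of their members called one way instead of 16. When edgeR tested changes against the cutoff itself, this held for 10 lists. limma on log2(FPKM + 1) called 1094 genes higher and 1699 lower. Leaving out each library in turn gave 2432 to 2653 higher and 2368 to 2491 lower genes. Larger interactions numbered 1312 with edgeR on reads, 1136 with a pseudocount of 0.1 and 194 with one of 5, and smaller ones 1202, 1159 and 401, so these counts depend on the scale. The Pax7 interaction turned to 3.17 (adjusted p = 0.00174) with edgeR on reads, where few mutant reads stand at d0. With edgeR on reads and with a pseudocount of 0.1, Myh3 turned from -0.62 to 2.19 and 1.47 and Mymx from -0.34 to 2.81 and 1.91, and with one of 5 Myog turned from 0.44 to -1.10. The histone list's median turned to -2.57 with DESeq2 and -2.10 with no filter, where 52 and 55 genes instead of 22 entered. Without d0 replicate 3, and without it and d4 replicate 2, Hist1h1d (-0.84 to 1.21 over libraries left out) turned to 1.21 and 1.07, and Hist1h1e to 0.60 and 0.32. The histone median was -0.64 to 1.70 over libraries left out, -0.66 with WT d0 libraries added and -0.09 on FPKM. The IGF axis median (-0.17) was 0.38, 0.24 and 0.31 without d0 replicate 1, 2 or 3. Of 94 changes of sign under all settings, 74 crossed no call and moved no list median by 0.5. The beta-cell median was 0.004 on FPKM, over 3 genes. Pgam2 missed the fold cutoff with limma on FPKM (0.94) and without both of those libraries (0.96). With the replicate block 2376 genes were higher and 2357 lower, and 587 interactions were larger and 826 smaller.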

Other observations

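Of the genes with a mean of at least 10 reads per mutant library, 16 were listed at d0 alone and 54 at d4 alone. At d0 these included Lce1g, of the skin's cornified envelope (mean 62 reads), the glutamate transporter gene Slc1a7 (43 reads), and the islet genes Iapp (35.3 reads) and Chga (24 reads). At d4 they included Mfng, which modifies Notch receptors (54 reads), Adamts8, a matrix protease gene (43.3 reads), and the liver genes Mup3 (70.7 reads) and Serpina3k (57 reads). Only when genes of either table were tested was a missing gene entered as 0.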
